A study of Mus musculus with 2 samples.

Results

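The genes described here encode NF-kB transcription factor subunits and proteins that regulate them. The subunit genes are Nfkb1, Nfkb2, Rel, Rela and Relb. The others are the kinase Ikbkb, the inhibitors Nfkbia and Nfkbie, the nuclear IkB protein gene Nfkbiz, and the ubiquitin-editing enzyme Tnfaip3. All were taken from the deposited value table through every probe set that the platform annotation names for 1 of these 10 genes alone. Of the 10 genes, 9 had such a probe set, 22 probe sets in all, out of 34945 probe sets and 18193 genes named singly on the array. Nfkb1 is not analysed here. Per gene, the probe set brightest on average over both arrays stands for the gene, and the others are given beside it.

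The study measured messenger RNA in neutrophils grown from bone marrow progenitors of male C57BL/6 mice, either wild-type or mir-223 knockout, on 1 Affymetrix 3' array per genotype. Both cultures grew for 6 days with granulocyte colony-stimulating factor and stem cell factor. Both received cycloheximide, an inhibitor of translation, at 100 ug/ml for the final 8 min. With 1 array per group no difference has a replicate check, no test was run, and the number of arrays limits the precision. The sources do not say how many mice gave cells, and neutrophils grown in culture need not match those of blood or marrow. Genes below are higher or lower between these 2 arrays, not between replicated groups.

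NF-kB dimers are kept in the cytoplasm by IkB proteins. Signals from Toll-like, interleukin-1 and TNF receptors activate the IKK kinase complex, which marks IkB for destruction and frees the dimers to enter the nucleus. Among the genes they switch on are those of their own inhibitors, Nfkbia, Nfkbie and Tnfaip3, and of the subunits Relb, Nfkb2 and Rel, so these messenger RNAs are often read as a record of recent NF-kB activity. In neutrophils the pathway is known for driving cytokine and chemokine genes and for prolonging survival. Inhibition of translation is known to raise some short-lived messenger RNAs of this kind. It was applied to both cultures, and its part in the levels was not tested.

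The microRNA that the knockout lacks is shown because every comparison turns on its absence. RefSeq gives both of its mature forms on the plus strand of the X chromosome (build GRCm38.p6), miR-223-5p at chrX:96242842-96242864 and miR-223-3p at chrX:96242884-96242905. Capitals mark the seed, bases 2 to 8, which pairs with target messenger RNAs.
mmu-miR-223-5p: cGUGUAUUugacaagcugaguug
mmu-miR-223-3p: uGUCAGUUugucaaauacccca

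Promoter stretches are shown because several of these genes are known to be NF-kB targets themselves. The kB consensus, the 10-base motif that NF-kB dimers bind, was searched on both strands of the RefSeq windows, each 300 bases long, from 250 before to 50 after a gene's start. Windows were at hand for 6 of the genes, and 5 of these (Nfkb2, Nfkbia, Nfkbie, Rel and Tnfaip3) held at least 1 match, while Rela held none. Over all 32851 windows 8.46% held a match, and over all genes with a window 9.55%. The windows of these genes were rich in G and C, with a median of 64.7% against 52.7% over all windows, and 13.9% of the windows at or above that median held a match. A match describes letters and is not a measured binding site. The stretches are written 5′ to 3′ on the strand of the gene, in build GRCm38.p6, with matches in capitals. Overlapping matches form 1 run of capitals.
Nfkbia, chr12:55492648-55492711, minus strand: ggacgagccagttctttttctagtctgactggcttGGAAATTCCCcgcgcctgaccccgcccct
Nfkbie, chr17:45555559-45555638, plus strand: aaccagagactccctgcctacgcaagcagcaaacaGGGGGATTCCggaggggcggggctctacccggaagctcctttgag
Tnfaip3, chr10:19015413-19015570, minus strand: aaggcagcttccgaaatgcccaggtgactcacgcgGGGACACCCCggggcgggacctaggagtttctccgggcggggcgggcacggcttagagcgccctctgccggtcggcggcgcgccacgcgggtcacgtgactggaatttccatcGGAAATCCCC
Rel, chr11:23771016-23771096, minus strand: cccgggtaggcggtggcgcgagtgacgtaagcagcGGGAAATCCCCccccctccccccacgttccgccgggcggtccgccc
Nfkb2, chr19:46304688-46304717, plus strand: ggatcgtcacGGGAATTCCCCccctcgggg

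Values are deposited intensities, in the arrays' arbitrary units. Differences subtract the wild-type from the knockout value after log2(intensity + 16), so 1 is 2-fold and changes of dim genes are understated. Each probe set is compared only with itself, since brightness also depends on the probes. A gene counts as expressed when its mean log2 value reaches the median over all probe sets, an intensity of 33.9. All 9 genes did, as did 11006 genes in all.

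The 9 genes were divided. The inhibitors Nfkbia, Nfkbie and Tnfaip3 and the subunits Relb and Nfkb2 were lower in the knockout array, by 0.21 to 0.64, whereas Rela and Ikbkb were higher by 0.21 and 0.14. Rel and Nfkbiz were nearly level. Of the 9 genes, 5 were lower and 4 higher, with 50.1% of all expressed genes lower, and the median of the 9 was -0.21 against -0.00037 over all expressed genes. All 5 lower genes were lower by at least 0.2, a size chosen after the values were seen, which 8.27% of expressed genes reached. On the higher side Rela alone reached 0.2, as 12.1% of expressed genes did.

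By at least 0.5, 2 of the 9 genes, Relb and Tnfaip3, were lower and 0 higher, where 0.591% of expressed genes were lower and 1.13% higher by as much. The 9 genes and the lists below were chosen with earlier results of these data known. Their counts beside the shares of all expressed genes are thus a description and not a test. None of the 9 reached 2-fold, as 0.145% of expressed genes did in either direction. These counts depend on the common level of the arrays. The spiked-in poly-A controls were lower on the knockout array in 24 of 24 probe sets, with a median of -0.17. The hybridization controls were lower too, in 17 of 18 probe sets with a median of -0.11, and the arrays were not shifted to them. Which controls give the better level was not tested. With the arrays shifted so that the poly-A controls were level, the median over all expressed genes became 0.17. That of the 9 genes became -0.034, and 0 of the 9 were lower by 0.5. On that level 5 of the 9 genes were lower at any size, with 11.3% of all expressed genes lower. The shift is the same for every gene, so the distance of the 9 genes from the rest could not differ between the levels.

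**Figure D1:**
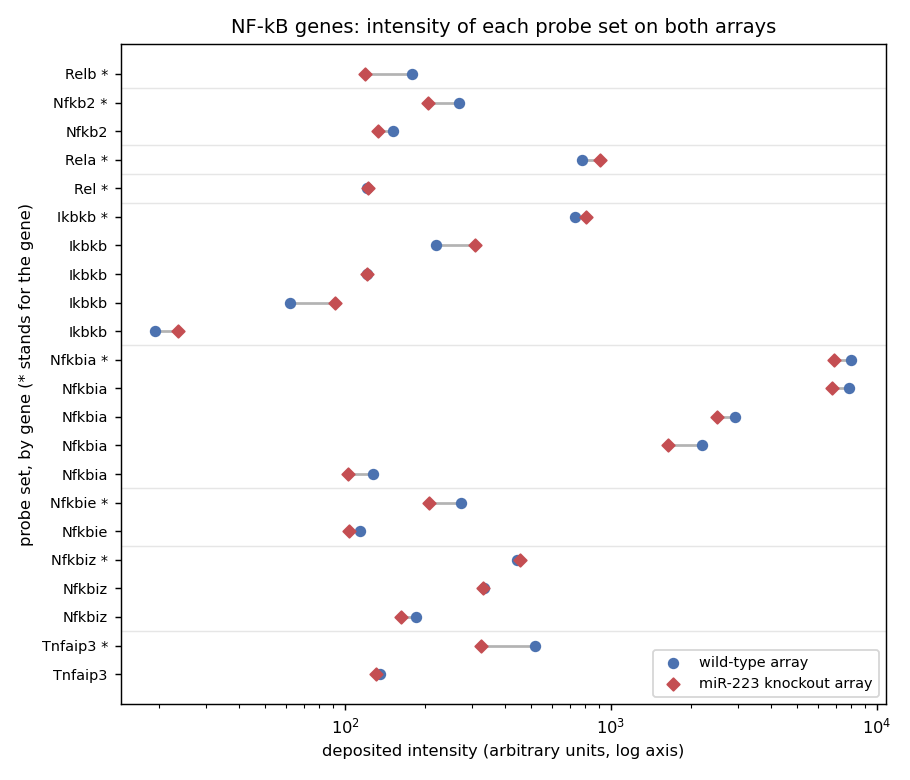
Deposited intensity (log axis, arbitrary units) of each of the 22 probe sets on the wild-type array (circles) and the knockout array (diamonds), grouped by gene, with an asterisk at the probe set that stands for the gene. All probe sets of Relb, Nfkb2, Nfkbia, Nfkbie and Tnfaip3 lie further left on the knockout array, and those of Rela further right.

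Among the subunits, Relb and Nfkb2 were lower. RelB pairs with the p52 protein made from Nfkb2, and the pair carries the slower, alternative branch of the pathway. The single probe set of Relb read 179 in wild type and 118 in the knockout. The knockout intensity thus differed by -33.8%, or -0.54 on the log2 scale, and 51 of 11006 expressed genes had a lower value. Nfkb2 read 269 in wild type and 204 in the knockout, a difference of -0.37. Its second probe set read 152 and 133 (-0.18), in the same direction at a smaller size.

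Rela and Rel, which carry the activation domains of the fast, classical branch, were not lower. Rela, the subunit of the most common dimer, read 780 in wild type and 906 in the knockout, a difference of 0.21 that 10.8% of expressed genes exceeded. Rel, the c-Rel subunit of blood cells, read 121 and 122 (0.014). Each had 1 probe set, so no second one could be set beside it, and that of Rel was level between the arrays.

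Ikbkb encodes IKK beta, the kinase that phosphorylates IkB proteins, and its probe sets were spread. The brightest read 730 in wild type and 805 in the knockout (0.14). Further probe sets read 220 and 309 (0.47), 62.0 and 92.0 (0.47), and 121 and 121 (-0.0049). The fifth, below the expression cut, read 19.3 and 23.5 (0.16). Thus 3 of the 4 expressed probe sets were higher in the knockout array and the other was level, and their mean with the dim one was 0.25.

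Nfkbia encodes IkB alpha, the inhibitor that is destroyed and remade within each round of activation, and all 5 of its probe sets were lower in the knockout array. They read 8005 and 6931 (-0.21), 7869 and 6774 (-0.22), 2934 and 2514 (-0.22), 2205 and 1635 (-0.43), and 127 and 103 (-0.27) on the wild-type and knockout arrays. The probe sets read the same RNA on the same arrays and are not replicates of the genotype. Of 204 genes with 5 expressed probe sets, 2 (0.98%), Nfkbia among them, had all 5 lower by at least 0.2. That size was chosen after the values were seen and lies just under the smallest Nfkbia difference (-0.21), so the share describes and does not test. The other gene was Tgm2, a transglutaminase, named after its values were seen. On the poly-A level the brightest probe set of Nfkbia stood at -0.034.

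Nfkbie, which encodes the related inhibitor IkB epsilon, was lower on both probe sets. The brighter read 274 in wild type and 207 in the knockout (-0.37), and 157 of 11006 expressed genes had a lower value. The other read 113 and 103 (-0.12). Nfkbiz encodes IkB zeta, a nuclear protein that helps NF-kB switch on secondary response genes, and it was near level. Its probe sets read 442 and 453 (0.036), 334 and 329 (-0.022), and 184 and 163 (-0.16), so the sign differed between them, and their mean was -0.049.

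Tnfaip3 encodes A20, which edits ubiquitin chains and shuts off signalling to IKK. Its brighter probe set read 516 in wild type and 325 in the knockout, a difference of -0.64, and 37 of 11006 expressed genes had a lower value. Its other probe set read 135 and 131, a difference of -0.041. Both were lower, but only the brighter reached 0.5, and the mean of the pair was -0.34.

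Of the 6 genes with at least 2 expressed probe sets, Ikbkb and Nfkbiz had probe sets of both signs and the other 4 did not. Over all 21 expressed probe sets, 15 were lower and 6 higher in the knockout array, where 48% of all expressed probe sets were lower. Of the 15, 5 belong to Nfkbia, so they are not independent. The pooled SD among a gene's expressed probe sets was 0.20 for these genes and 0.14 over 5017 genes of the array. The differences of Ikbkb, Rel and Nfkbiz were smaller than both SDs and those of the other 6 genes larger, though Rela and Nfkbia, at 0.21 and -0.21, only just. This spread lies within the arrays and is not a replicate error.

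**Figure D2:**
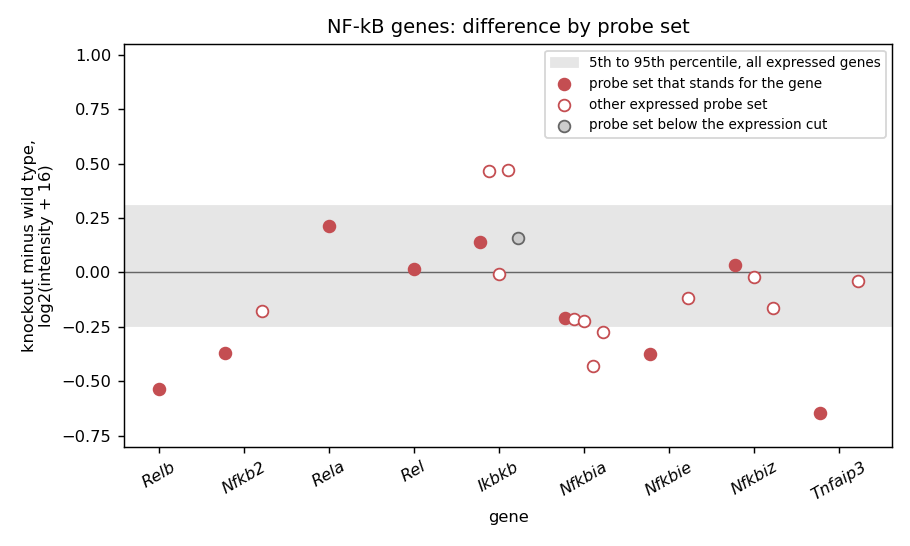
Difference between the arrays (knockout minus wild type, log2 scale) for each probe set by gene. Filled points stand for the gene, open points are its other expressed probe sets, the grey point is below the expression cut, and the band spans the 5th (-0.25) to 95th (0.30) percentile of all expressed genes. The filled points of Relb, Nfkb2, Nfkbie and Tnfaip3 lie below the band, and those of the other 5 genes lie inside it.

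The genes with a kB match in their promoter window included both lower and level ones. Nfkbia, Nfkbie, Nfkb2 and Tnfaip3, whose stretches are printed above, were lower, although a further window of Tnfaip3 held no match. The Nfkb2 window of the printed stretch held 3 matches, the last starting 11 bases before the gene's start and outside that stretch. Further windows of Nfkb2 also held matches. Rel, with an overlapping pair of matches like the pair printed for Nfkb2, was level. Rela, the only gene with a window and no match, was higher. Relb, Ikbkb and Nfkbiz had no window at hand. Across the array, the 1098 expressed genes with a match had a median difference of 0.0060 and the 7882 without one -0.0020, and 9.29% and 8.03% of them were lower by at least 0.2.

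Other members of the same protein families included higher and lower genes, with a median near 0. Of 7 expressed further Rel, IkB and IKK genes, 0 reached 0.5 in either direction, 2 were higher and 5 lower, and their median was -0.027. Ikbkg, the NEMO scaffold of the IKK complex, read 239 in wild type and 296 in the knockout (0.29), with a probe set as low as -0.033. Ikbke, an IKK-related kinase, stood at -0.15, Map3k14, the kinase NIK of the alternative branch, at 0.10, and the nuclear IkB protein gene Nfkbid at -0.043. Chuk, which encodes IKK alpha, is not analysed here.

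The listed adaptors, kinases and receptors of the pathway included higher and lower genes, with medians near 0. Of 14 expressed adaptors and kinases, 0 reached 0.5, 9 were higher and 5 lower, and the median was 0.017. The largest differences were those of the interleukin-1 receptor kinases Irak2 (-0.30) and Irak1 (0.14, with a probe set at -0.14), Map3k8, the kinase Tpl2 (0.20), and Tab3, a partner of the kinase TAK1 (-0.16). Of 10 expressed receptors, 0 reached 0.5, 4 were higher and 6 lower, and 1 was higher and 4 lower by at least 0.2. By that size 12.1% of all expressed genes were higher and 8.27% lower. Among those 4, the TNF receptor gene Tnfrsf1b stood at -0.27, with a probe set at 0.22. The median of the receptors was -0.017, and -0.15 with the expression cut at the 75th percentile. The lipopolysaccharide co-receptor Cd14 read 1125 and 896 (-0.32), and Tlr2, which senses bacterial lipoproteins, 1612 and 1286 (-0.32). Tlr4, the lipopolysaccharide receptor, was higher at 0.31. Cd40 read 41.9 and 31.4 (-0.29), close to the expression cut of 33.9, with another expressed probe set at -0.11.

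Further negative regulators were divided. The median of the 12 expressed genes was 0.078, and 9 of them were higher and 3 lower, while 1 was higher and 2 lower by at least 0.2. By that size 12.1% of all expressed genes were higher and 8.27% lower. Nlrp12, a NOD-like receptor reported to dampen NF-kB signalling, read 105 in wild type and 249 in the knockout (1.13) on its 1 probe set. It was the only one at 0.5 or more, with 1.13% of all expressed genes higher by as much. Tnip1, which encodes a binding partner of A20, was lower at -0.27, as was Irak3, which encodes the inhibitory kinase-like protein IRAK-M (-0.26, with a probe set at 0.060). Tax1bp1, another A20 partner, stood at 0.18, with a probe set at -0.041.

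Known transcriptional targets were divided. Of 22 expressed genes, 10 were higher and 12 lower, and the median was -0.041. By at least 0.2, 6 of the 22 were lower and 1 higher, against 8.27% and 12.1% of all expressed genes. The median turned to 0.021 with the mean of probe sets and to 0.0029 with the cut at the 75th percentile. Sod2, the mitochondrial superoxide dismutase, read 2595 in wild type and 1763 in the knockout (-0.55), although its probe sets ran from -0.58 to 0.031, and it was the only target lower by 0.5. The chemokine Cxcl10 stood at -0.43, the cytokine Tnf at -0.39 and the adhesion receptor Icam1 at -0.34, each on 1 expressed probe set.

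**Figure D3:**
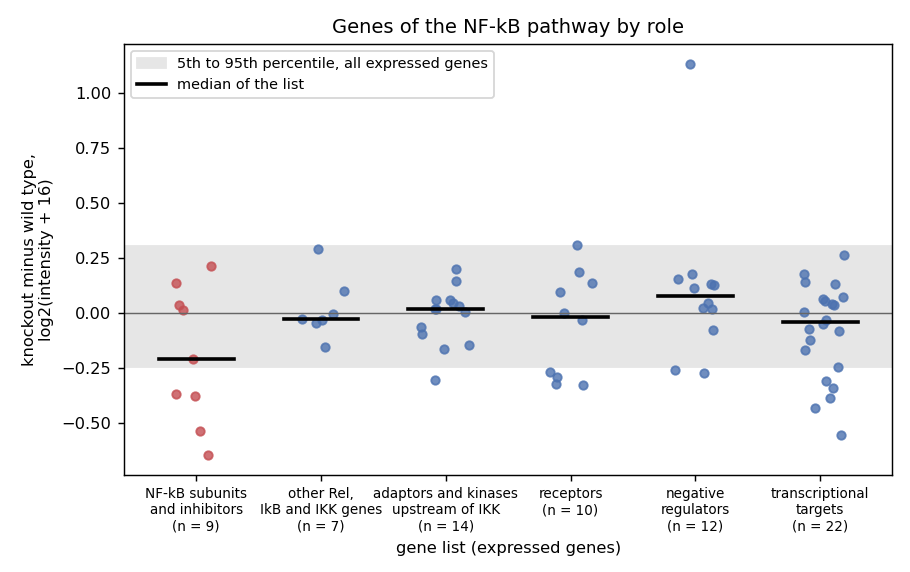
Difference between the arrays (knockout minus wild type, log2 scale) of each expressed gene, by role in the pathway, with the median of each list as a bar and the 5th to 95th percentile of all expressed genes as a band. The bar of the NF-kB subunits and inhibitors lies at -0.21, those of the other lists between -0.041 and 0.078, and the high point among the negative regulators is Nlrp12.

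The plot of alternatives shows that Relb, Nfkb2, Nfkbia, Nfkbie and Tnfaip3 were below 0 and Rela and Ikbkb above 0 in each alternative that kept them, while Rel and Nfkbiz each changed sign in 1. Relb ranged from -0.59 to -0.36 and Tnfaip3 from -0.67 to -0.34.

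**Figure D4:**
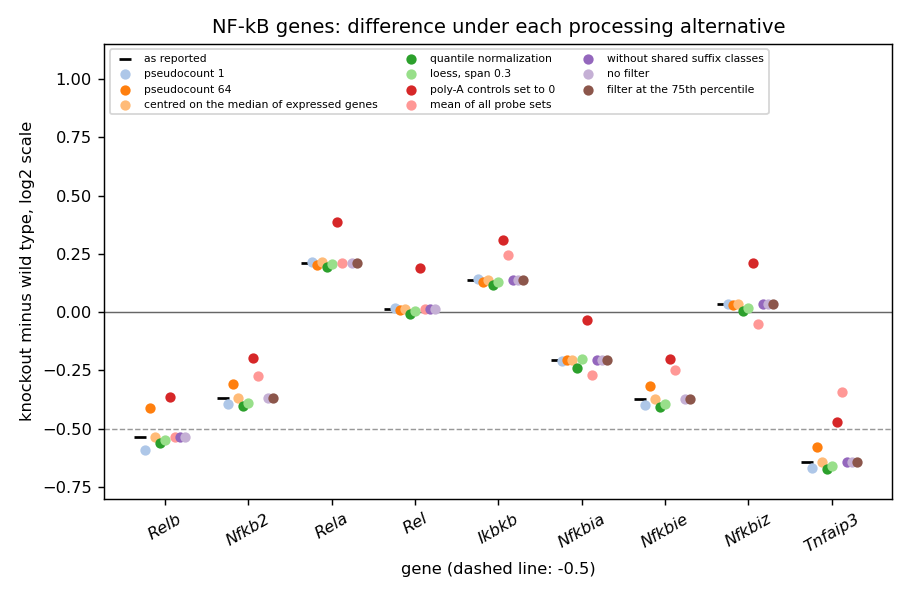
Difference of each gene (knockout minus wild type, log2 scale) as reported (bars) and under each processing alternative (points), with a dashed line at -0.5. The point farthest above the bar is that of the poly-A level for each gene but Tnfaip3, where it is the mean of both probe sets.

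The cultures also differed in markers of other cells, and the part of these in the NF-kB differences was not tested. All 12 neutrophil markers with a probe set were expressed, with a summed intensity of 147002 in wild type and 156617 in the knockout. Of the 12, 11 were higher, led by Itgam (0.65) and Cd177 (0.59), except Camp (-0.29). Of 10 mast cell and basophil markers, 10 were lower, from a sum of 6710 to 4684 (Cma1 -0.76, Cpa3 -0.74). Megakaryocyte and platelet markers were lower in 7 of 8, from 2118 to 1362 (Ppbp -1.06), except Itgb3 (1.34). Eosinophil markers were lower in 3 of 4 expressed, from 1203 to 977 (Prg3 -0.92), except Siglecf (0.92).

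Monocyte and macrophage markers were higher in 7 of 10, from 8157 to 9131 (Apoe 1.51, Ly86 0.71), except Cx3cr1 (-0.60), Cd14 (-0.32) and Adgre1 (-0.016). Of 5 expressed genes of dendritic cells and MHC class II, 4 were lower, from 1396 to 1204 (H2-Aa -0.48), except Flt3 (0.30). B cell markers were higher in 2 of 3 expressed, from 874 to 1290 (Ighm 0.64, Cd79b 0.43), except Pax5 (-0.14). Most of that sum was Ighm, at 662 in wild type and 1042 in the knockout. T and NK cell markers were lower in 3 of 4 expressed, from 1103 to 1387 in sum (Cd3d -0.81, Nkg7 0.47). Sums take every measured marker of a list. No probe set of either array reads 0, the lowest being 4.56 in wild type and 4.49 in the knockout. A reading above 0 thus does not show that a cell type was present. Ccr3, Itgax, Ciita, Cd79a, Ms4a1, Cd3e and Cd3g were below the expression cut. In bulk RNA, fewer cells of a type and less RNA per cell cannot be told apart. As a sign of RNA quality, the 3' probe set of beta-actin exceeded the 5' one by 0.33 (log2) in wild type and 0.25 in the knockout.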

How the data were processed

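The table deposited by the authors holds a linear intensity for each probe set on each array. Per the labels' protocols, RNA was extracted with Trizol and labelled with the Affymetrix 3' IVT Express kit. How background was corrected and probe sets were summarized and normalized is not stated in the sources used here. Median intensities were 34.1 (wild-type) and 33.7 (knockout), and values were used as deposited. The members and gene lists were chosen with earlier results of these data known.

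Of 45101 probe sets, 64 were controls. By the platform annotation, 34945 had 1 gene, 932 had several and 9160 had no gene. Symbols of 34741 were matched by Entrez identifier to RefSeq (GRCm38.p6). Values became log2(intensity + 16) in Python 3.11.15. Named genes were all members, the 4 largest differences of each pathway list with any at 0.5 or more, and 2 per marker list. Tgm2, Tnfrsf1b, Cx3cr1, Cd14 as a marker, Adgre1, Camp and Pax5 were added after their values were seen. Alternatives were pseudocounts of 1 and 64, centring, quantile normalization, loess (span 0.3), levelled poly-A controls, means of probe sets, no shared suffix classes, and other filters and thresholds. Counting was tested on simulated data. A planned search of IkB proteins was not run, because no protein sequences were used here.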

Additional observations from a re-analysis of the deposited data

How the results depend on the processing

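With poly-A controls levelled, the members' median was -0.034, 0 members were lower by 0.5 and 3 by 0.2, and 0 of the transcriptional targets were lower by 0.5. A pseudocount of 64, the mean of probe sets and a filter at the 75th percentile, which removed Rel and Relb, each left 1 member lower by 0.5, and a threshold of 1 left 0. Without probe sets of shared suffix classes, which removed Nfkb2, Rela and Nfkbie, 3 members were lower, all by 0.2. Among the targets, 2 were lower by 0.5 with a pseudocount of 1 or no filter, and 0 with the mean of probe sets. The filter at the 75th percentile left 0 negative regulators higher by 0.5, since it removed Nlrp12. Quantile normalization put Rel at -0.010, and the mean of probe sets put Nfkbiz at -0.049. The median of the members was -0.097 without shared suffix classes and ran from -0.25 to -0.20 in the alternatives other than that and the poly-A level. The share of expressed genes lower by 0.5 ran from 0.30% to 0.95%. No paired analysis was possible because each genotype had 1 array. Medians of the other lists all moved up with the poly-A level, to 0.15 for other Rel, IkB and IKK genes, 0.19 for adaptors and kinases, 0.16 for receptors, 0.25 for negative regulators and 0.13 for targets, beside 0.17 over all expressed genes. That of adaptors and kinases turned to -0.0050 under quantile normalization and -0.065 without shared suffix classes.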
